A study of Rattus norvegicus with 44 samples.

Results

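Compound 1, a stimulator of soluble guanylate cyclase, was assessed for its pooled effect on kidney transcripts across both Enalapril backgrounds, with all 44 libraries of the series. The 24 animals given Compound 1 were set against the 20 not given it in a model that also held an additive term for Enalapril, an inhibitor of angiotensin-converting enzyme. Every animal was a male obese ZSF1 (ZSF-1OB) rat, a strain that develops obesity, hypertension, diabetes and kidney disease, and all carried a telemetry implant. Drug was mixed into the feed for 6 months from 22 weeks of age, and a portion of the right kidney was sequenced. The Vehicle group had 11 animals, the Enalapril group had 9 at 3 mg/kg/day, the Compound1 group had 12, and the combination group had 12 that received Enalapril at 3 mg/kg/day together with Compound 1. Compound 1 was raised from 1 to 3 mg/kg/day in the Compound1 group and stayed at 1 mg/kg/day in the combination group, so the pooled effect spans both doses, and dose and Enalapril background cannot be told apart. Groups differed in no allele, and each library came from its own animal.

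Soluble guanylate cyclase is a heterodimer that binds nitric oxide and makes cyclic GMP, which acts through cyclic GMP-dependent kinases, ion channels and phosphodiesterases. In the kidney the enzyme is known from vascular smooth muscle, mesangial cells, pericytes and interstitial fibroblasts, and cyclic GMP relaxes vessels and restrains fibrosis and platelet activation. Obese ZSF1 kidneys show glomerular and tubulointerstitial injury with immune infiltration.

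Levels are FPKM, fragment counts scaled to transcript length and library size. Of 32883 entries in the deposited table, 13482 exceeded 1 FPKM in 9 or more libraries and were tested by limma on log2(FPKM + 0.1). Genes were called DEGs where the adjusted p was below 0.05 and the fold lay above 1.5 or below 0.66, and genes past the adjusted p alone were counted apart. A log2 fold change is always the animals given Compound 1 minus those not given it, with its standard error (SE), and the added 0.1 FPKM understates the change of low genes. In whole tissue, fewer cells of a type and less RNA per cell cannot be told apart. FPKM hold no read totals, so depth was read only as a relative value, which had a median of 0.882 in Vehicle, 0.999 with Compound 1, 1.14 with Enalapril and 1.03 in the combination group. All 32 listed proximal tubule markers passed the filter, against 1 of 13 adrenal and 4 of 15 neutrophil and eosinophil markers.

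The library labelled Compound1 from animal 3011 stood apart from its group. Among the 20 genes most changed by Enalapril in the other 43 animals, its level lay inside the range of the animals given Enalapril for 20, and outside the range of all others not given Enalapril for 18. Trpv6, an epithelial calcium channel, was at 1.35 FPKM in it, against 2.46 to 12.5 in the other animals not given Enalapril and 0.860 to 3.85 in those given it. Clu, a secreted chaperone that rises in tubular injury, was at 524 FPKM against 638 to 2450 and 381 to 809. Animal 3011 is labelled as given Compound 1, and results that depend on it are given below with and without it.

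Few kidney transcripts were called DEGs for Compound 1, and most changes past the adjusted p alone were small. Of the 13482 genes, 24 were DEGs: 8 were higher (0.0593%) and 16 were lower (0.119%), with 2683 genes at an unadjusted p under 0.05. Without the fold threshold, 430 genes passed, 111 higher (0.823%) and 319 lower (2.37%), with a median log2 fold change of 0.28 and -0.29, respectively. All tested genes were shifted, with a median of -0.04 and 9101 of 13482 negative. The split of the 430 depended on this shift: with median-of-ratios scaling 298 of 523 genes were higher and 225 lower, and after quantile normalization 292 of 545 were higher and 253 lower. For DEGs these scalings gave 10 higher and 13 lower, and 12 higher and 13 lower. Without animal 3011, 19 genes were DEGs, 5 higher and 14 lower, and 310 passed the adjusted p alone. No DEG separated the 24 animals from the 20 without overlap, and Compound1 and Vehicle did not overlap in 5 of all 13482 tested genes (0.0371%), of which 3 were DEGs, Mcpt8l2 and Col6a5 among them. The combination and Enalapril did not overlap in 2 (0.0148%), neither of them a DEG.

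**Figure D1:**
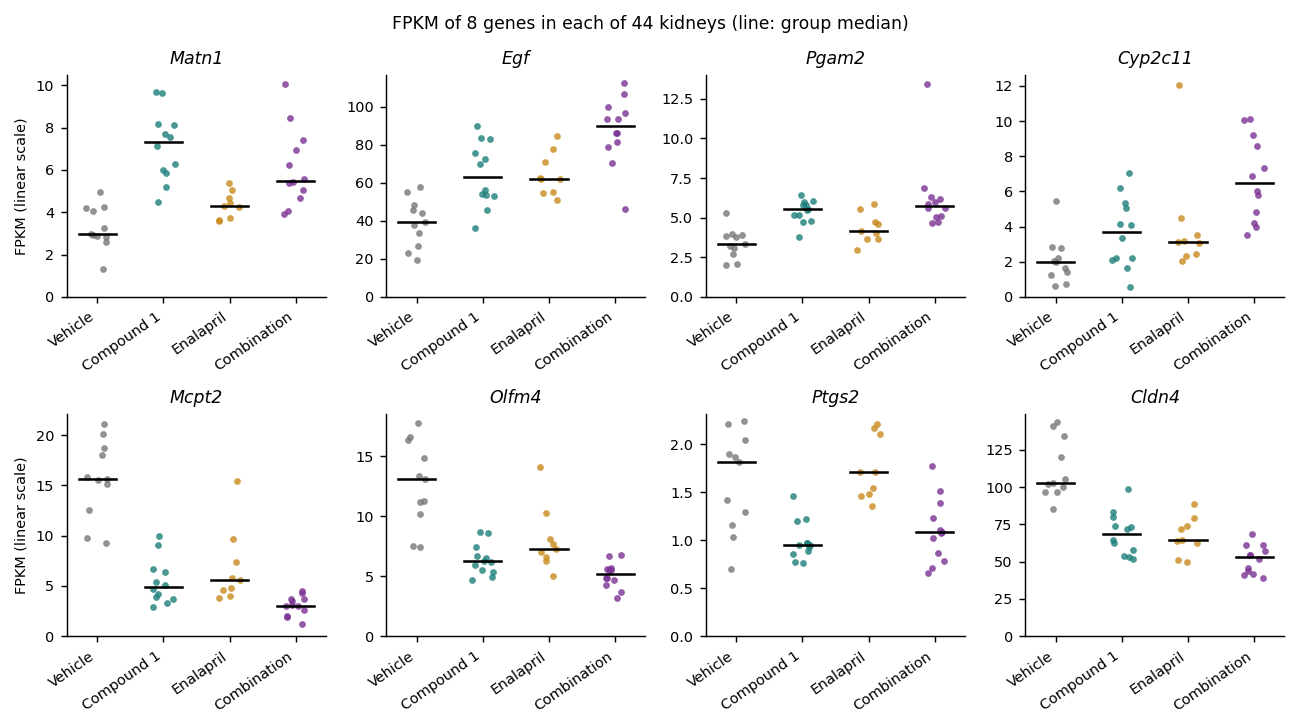
FPKM on a linear axis for 8 genes in each of the 44 kidneys, with 1 point per animal, groups along the horizontal axis and a line at each group median. Matn1, Egf, Pgam2 and Cyp2c11 sit higher with Compound 1 in both backgrounds, and Mcpt2, Olfm4, Ptgs2 and Cldn4 sit lower.

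No tested subunit of soluble guanylate cyclase, the target of Compound 1, passed the test. Gucy1a1, the alpha 1 subunit, ran from 8.87 to 19.6 FPKM (median 14.8) in Vehicle, from 9.19 to 17.1 (12.8) with Compound 1, from 8.92 to 13.7 (10.1) with Enalapril and from 6.91 to 14.9 (8.99) with the combination. These ranges overlapped widely, and the log2 fold change was -0.17 (SE 0.08, adjusted p = 0.241, limma). The beta 1 subunit Gucy1b1 gave -0.06 (SE 0.08) and the beta 2 subunit Gucy1b2 gave 0.12 (SE 0.09), with adjusted p values of 0.739 and 0.443 by limma. Gucy1a2 was under the filter. Of 26 tested genes of nitric oxide and cyclic GMP signalling, 2 were higher and 0 were lower, with a median log2 fold change of -0.04, equal to that of all tested genes. Arg2, a mitochondrial arginase that competes with nitric oxide synthases for arginine, had a median of 12.8 FPKM (10.2 to 15.4) in Vehicle, 16.2 (13.8 to 19.7) with Compound 1, 14.4 (10.6 to 19.1) with Enalapril and 17.1 (13.7 to 24.8) with the combination. It rose by 0.27 on the log2 scale (SE 0.06, adjusted p = 0.0115, limma), above the control median in 12 of 12 animals without Enalapril and 11 of 12 with it. Pde1a, a calcium-activated phosphodiesterase that hydrolyses cyclic GMP, rose by 0.21 (SE 0.06, adjusted p = 0.0233, limma). Its medians were 7.23, 8.05, 7.24 and 7.77 FPKM in Vehicle, Compound1, Enalapril and the combination. The phosphodiesterase Pde5a and the natriuretic peptide receptor Npr1 gave -0.05 (SE 0.09) and 0.01 (SE 0.06).

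Proteases of mast cell granules were among the genes that fell most. Mcpt2, a chymotrypsin-like mast cell protease, ran from 9.26 to 21.1 FPKM (median 15.6) in Vehicle, from 2.95 to 9.94 (4.91) with Compound 1, from 3.82 to 15.4 (5.57) with Enalapril and from 1.18 to 4.54 (3.03) with the combination. All 12 Compound1 animals were below the Vehicle median and all 12 combination animals below the Enalapril median, although ranges overlapped in both pairs. Its log2 fold change was -1.32 (SE 0.16, adjusted p = 7.84e-07, limma), a fold of 0.401. Cma1, a mast cell chymase, had medians of 2.57, 1.18, 1.13 and 0.920 FPKM in Vehicle, Compound1, Enalapril and the combination. The Vehicle range of 1.77 to 4.00 overlapped that of the Compound1 animals at 0.571 to 1.92, and the fall was -0.86 (SE 0.17, adjusted p = 0.00256, limma). Cpa3, a carboxypeptidase stored in the same granules, fell from 0.958 to 3.71 FPKM (median 2.47) in Vehicle to 0.309 to 1.74 (1.03) with Compound 1, and stood at 0.162 to 1.85 (0.886) with Enalapril and 0.422 to 0.811 (0.588) with the combination. Its log2 fold change was -0.84 (SE 0.17, adjusted p = 0.00406, limma). Mcpt8l2 and Mcpt8l3, named for their likeness to the basophil and mast cell protease Mcpt8, fell by 1.59 (SE 0.24) and 0.97 (SE 0.25), with adjusted p values of 7.15e-05 and 0.0229 by limma. Mcpt genes are close paralogs, so reads may be divided among them in ways the deposited values do not show, and their separate levels are uncertain.

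Other mast cell genes were low or did not pass. Of 19 mast cell markers, 15 were in the table, 5 passed the filter and 3 were lower. Kit, the stem cell factor receptor, gave -0.02 (SE 0.06) and Gata2, a transcription factor of mast cells and endothelium, gave -0.06 (SE 0.07), and both turned positive under quantile normalization. The other 10 never exceeded 1 FPKM in any of the 44 libraries. Fcer1a, the immunoglobulin E receptor alpha chain, had medians of 0.591 in Vehicle, 0.129 with Compound 1, 0.0319 with Enalapril and 0.0394 with the combination, and Ms4a2, its beta chain, had 0.377, 0.151, 0.194 and 0.0484. The summed level of the 15 ran from 27.5 to 45.6 FPKM in Vehicle, 16.6 to 28.8 with Compound 1, 17.8 to 34.9 with Enalapril and 14.1 to 24.4 with the combination. Cpa3, Cma1 and Mcpt2 stayed lower in each fit that left out 1 animal. With a pseudocount of 1, Cma1 and Cpa3 lost the DEG call, while Mcpt2 kept it in all 17 other settings. Mcpt8l3 lost it without a term for Enalapril and without animals 2103 and 3102 to 3105. To show the start regions of 2 genes that fell together, the 150 bases before the annotated start of Cpa3 and Cma1 (RefSeq, build GRCr8, 5′ to 3′) are printed with matches to a GATA factor motif (searched on either strand as AGATAA, then with the form AGATAG, then with the form TGATAA, and last with the form TGATAG) in capitals, at 55 and 64 bases before the start.
Cpa3 (chr2:104673238-104673387, minus strand): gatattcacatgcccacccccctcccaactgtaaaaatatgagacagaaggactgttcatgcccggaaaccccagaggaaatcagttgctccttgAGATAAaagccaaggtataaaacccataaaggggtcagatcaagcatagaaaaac
Cma1 (chr15:33390134-33390283, minus strand): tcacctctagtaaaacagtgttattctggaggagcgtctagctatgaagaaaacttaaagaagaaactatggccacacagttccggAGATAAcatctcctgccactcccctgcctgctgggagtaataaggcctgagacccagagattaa
Such a match lay in the 250 bases before the start in 2 of the 4 tested mast cell genes that matched the promoter table and in 17.9% of the 9745 tested genes with a promoter and 27.0% of all 33469 promoters.

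Lower DEGs outside the mast cell genes included Olfm4, Ptgs2, Slfn4 and Cxcl1. Olfm4, a secreted glycoprotein of injured and regenerating epithelium, ran from 7.47 to 17.8 FPKM (median 13.1) in Vehicle, from 4.70 to 8.65 (6.26) with Compound 1, from 5.01 to 14.1 (7.29) with Enalapril and from 3.19 to 6.78 (5.19) with the combination. Each of the 24 animals given Compound 1 was below the median of its own control group, and the log2 fold change was -0.79 (SE 0.11, adjusted p = 8.91e-06, limma). Ptgs2, the inducible cyclooxygenase of the macula densa and medullary interstitium, had medians of 1.82 FPKM in Vehicle and 0.952 with Compound 1, and of 1.71 with Enalapril and 1.08 with the combination. It fell by 0.62 (SE 0.11, adjusted p = 0.000903, limma) with -0.59 (SE 0.16) without Enalapril and -0.65 (SE 0.17) with it. Ptgs2 fell short of the fold threshold under both other scalings. Slfn4, an interferon-inducible gene of myeloid cells, fell by 0.70 (SE 0.13, adjusted p = 0.000990, limma), from a median of 23.1 to 13.9 FPKM without Enalapril and from 19.2 to 12.2 with it. Cxcl1, a neutrophil-attracting chemokine, gave -0.62 (SE 0.18, adjusted p = 0.0464, limma), and the adjusted p exceeded 0.05 or the fold threshold was missed in 27 of the 44 fits that left out 1 animal. Without animal 3011 it was still -0.62 (adjusted p = 0.0649, limma). Tgm1, a transglutaminase of stratified epithelia, fell by 0.76 (SE 0.15) and Col6a5, a collagen VI chain, by 0.66 (SE 0.11), with adjusted p values of 0.00292 and 0.000214 by limma. Tgm1 passed the filter only through Vehicle, where 11 of 11 animals exceeded 1 FPKM against 6 of the other 33. Both genes were near 1 FPKM, and both lost the fold threshold with a pseudocount of 1.

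Cyp27b1, the 1 alpha-hydroxylase that activates vitamin D in the proximal tubule, fell by 0.94 (SE 0.23, adjusted p = 0.0156, limma). Its median was 3.24 FPKM in Vehicle, 1.83 with Compound 1, 2.06 with Enalapril and 1.11 with the combination, and the ranges overlapped in both pairs. Tac3, the precursor of neurokinin B, fell by 0.78 (SE 0.20, adjusted p = 0.0205, limma). Prima1, the membrane anchor of acetylcholinesterase, ran from 10.2 to 17.5 FPKM (median 14.3) in Vehicle and from 4.60 to 18.2 (6.01) with Compound 1. It ran from 8.22 to 25.2 (18.5) with Enalapril and from 6.35 to 21.5 (12.5) with the combination. The highest Compound1 animal exceeded the whole Vehicle range, but 10 of 12 animals lay below the control median in each background, and the fall was -0.76 (SE 0.15, adjusted p = 0.00312, limma). Enalapril moved Prima1 the other way, by 0.56 (SE 0.15, adjusted p = 0.00289, limma), in a comparison that shares these animals. The remaining 2 lower DEGs, AABR07044470.1 and AABR07059002.1, carry no descriptive symbol.

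Higher DEGs included Matn1, Egf and Pgam2. Matn1, a cartilage matrix protein of the matrilin family, ran from 1.32 to 4.95 FPKM (median 2.95) in Vehicle, from 4.48 to 9.70 (7.34) with Compound 1, from 3.58 to 5.40 (4.29) with Enalapril and from 3.92 to 10.1 (5.49) with the combination. Without Enalapril the groups overlapped only between 4.48 and 4.95 FPKM, and with it they overlapped widely. The log2 fold change was 0.80 (SE 0.12, adjusted p = 5.55e-05, limma). Egf, a growth factor made by the thick ascending limb and distal convoluted tubule, had medians of 39.3 FPKM (19.3 to 57.5) in Vehicle, 62.8 (36.3 to 89.6) with Compound 1, 62.1 (50.8 to 84.8) with Enalapril and 89.8 (46.0 to 112) with the combination. It was above the control median in 11 of 12 animals in each background, with a log2 difference of 0.59 (SE 0.11, adjusted p = 0.00140, limma). Egf stood just past the fold threshold and lost the DEG call in 13 of 44 fits that left out 1 animal, and without animal 3011 it was 0.57 with an adjusted p of 0.00260 by limma. Pgam2, the muscle form of phosphoglycerate mutase, rose by 0.60 (SE 0.10, adjusted p = 0.000242, limma), above the control median in all 24 animals. In the combination group 1 animal had 13.5 FPKM of Pgam2, where the others reached at most 6.90. The DEG call of Pgam2 was lost without any 1 of 6 animals, that animal among them.

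Among the other higher DEGs, the calls of Cyp2c11, Mlc1 and Tnni1 lay near a threshold and were lost in some fits that left out 1 animal. Apoc2, the apolipoprotein that activates lipoprotein lipase, rose by 0.67 (SE 0.16, adjusted p = 0.0126, limma), from a median of 14.1 to 24.7 FPKM without Enalapril and from 29.4 to 39.5 with it. Cyp2c11, a male-specific steroid hydroxylase in the rat, had medians of 1.99 and 3.71 FPKM in Vehicle and Compound1 and of 3.13 and 6.46 with Enalapril and the combination. Its log2 fold change was 0.81 (SE 0.22, adjusted p = 0.0326, limma), and without animal 3011 it was 0.77 with an adjusted p of 0.0537 by limma. Mlc1, a membrane protein best known from astrocytes, gave 0.61 (SE 0.18, adjusted p = 0.0445, limma), and its call was lost in 20 of 44 fits that left out 1 animal. Without animal 3011 Mlc1 was at 0.56 with an adjusted p of 0.0727 by limma. Tnni1, slow skeletal troponin I, gave 0.60 (SE 0.16, adjusted p = 0.0223, limma), and its median went from 1.58 to 2.30 FPKM without Enalapril and from 0.818 to 1.44 with it. The DEG call of Tnni1 was lost in 10 of the 44 fits.

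Below the fold threshold, several changes were small with little spread. Ndrg2, a stress-responsive gene of the NDRG family, ran from 23.4 to 33.6 FPKM (median 26.3) in Vehicle, from 28.7 to 36.9 (33.0) with Compound 1, from 24.1 to 27.8 (25.6) with Enalapril and from 28.2 to 39.8 (31.8) with the combination. With Enalapril the combination lay wholly above its control, and without it the ranges overlapped, giving 0.30 (SE 0.04, adjusted p = 6.99e-06, limma). Nabp1, a single-stranded DNA binding protein, had medians of 37.5, 23.4, 33.1 and 21.9 FPKM in Vehicle, Compound1, Enalapril and the combination, a fold of 0.671. It fell by 0.58 (SE 0.07, adjusted p = 8.77e-07, limma), and all 24 animals lay below their control median. Cldn4, a chloride-pore claudin of the collecting duct, had medians of 103, 68.5, 64.5 and 53.1 FPKM in the same order. Its log2 fold change was -0.55 (SE 0.08, adjusted p = 4.73e-05, limma). Slc23a3, a member of the ascorbate transporter family, rose by 0.51 (SE 0.08), Cryab, a small heat shock protein, by 0.31 (SE 0.05), Kcnq1, a voltage-gated potassium channel, by 0.28 (SE 0.05) and Eng, the endothelial TGF-beta coreceptor endoglin, by 0.25 (SE 0.04). The limma adjusted p values of these 4 were 4.79e-05, 0.000189, 0.000198 and 0.000242. Vmp1, an autophagy membrane protein, Tmem252 and Tmem80 fell by 0.25 (SE 0.04), 0.37 (SE 0.06) and 0.28 (SE 0.05). Fa2h, Esrrb, Slc23a3, Pgam2, Egf, Cd163 and Matn1, which the study named with Compound 1, were each higher here, but they were chosen on these samples and are no independent evidence of direction.

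**Figure D2:**
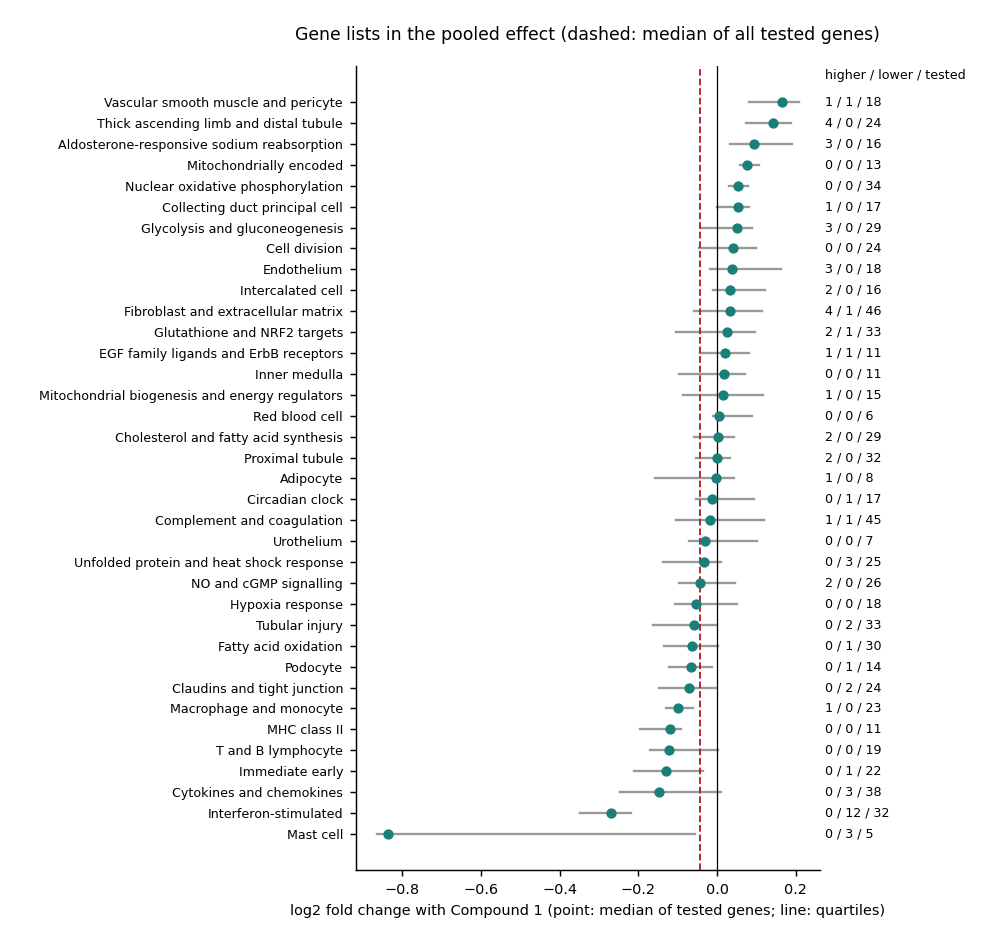
Median log2 fold change (point) and quartiles (line) for each list with 5 or more tested genes, the study's own list and a list not reported here left out, in the pooled Compound 1 effect, with a dashed line at the median of all 13482 tested genes and, at right, how many members were higher, lower and tested. Mast cell and interferon-stimulated genes lie lowest, and smooth muscle and distal nephron genes lie highest. The lists were chosen with earlier results of these data known.

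Of 32 tested interferon-stimulated genes, 12 were lower, 0 were higher and 20 did not pass. All 32 had negative log2 fold changes with a median of -0.27, against -0.04 over all tested genes, of which 67.5% were negative. The lists and their members were chosen with earlier results of these data known. Genes of a list were also measured in the same animals, so a shared sign is no independent evidence. Class II antigen presentation genes (11 of 11) and macrophage genes (22 of 23) were also mostly negative. Without Enalapril the medians of these lists were -0.24 and -0.13, against -0.07 over all tested genes. With Enalapril they were 0.02 and -0.03, against -0.02. Mx2, an interferon-induced dynamin-like GTPase, ran from 13.9 to 31.3 FPKM (median 19.7) in Vehicle, from 9.76 to 17.2 (13.7) with Compound 1, from 10.7 to 21.0 (14.5) with Enalapril and from 7.34 to 19.4 (12.0) with the combination. It fell by 0.45 (SE 0.10, adjusted p = 0.00809, limma). The antiviral ligase Herc6 and the ADP-ribosyltransferase Parp14 fell by 0.47 (SE 0.11) and 0.31 (SE 0.07), with adjusted p values of 0.0124 and 0.0145 by limma. Cxcl10, a chemokine for T cells, had medians of 20.2 and 14.2 FPKM in Vehicle and Compound1 and of 13.9 and 11.5 with Enalapril and the combination, and fell by 0.36 (SE 0.09, adjusted p = 0.0169, limma). The others that fell were Oas2, Usp18, Mx1, Ifi44, Rtp4, Gbp5, Rsad2 and Bst2, by 0.23 to 0.55. Every tested member stayed negative in each of 17 other settings, with 5 to 20 of them lower, and 9 of 32 were lower without animal 3011. Without Enalapril the median was -0.39 and 8 of 32 were lower, against -0.07 and 64 genes (0.475%) over all tested. With Enalapril the median was -0.12 against -0.02, and 0 of 32 were lower where 4 of all 13482 genes (0.0297%) were. Enalapril itself lowered 24 of 32, where it lowered 40.0% and raised 7.75% of all tested genes. The summed level of the 33 listed genes in the table ran from 787 to 1314 FPKM in Vehicle, 625 to 907 with Compound 1, 538 to 908 with Enalapril and 541 to 960 with the combination.

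**Figure D3:**
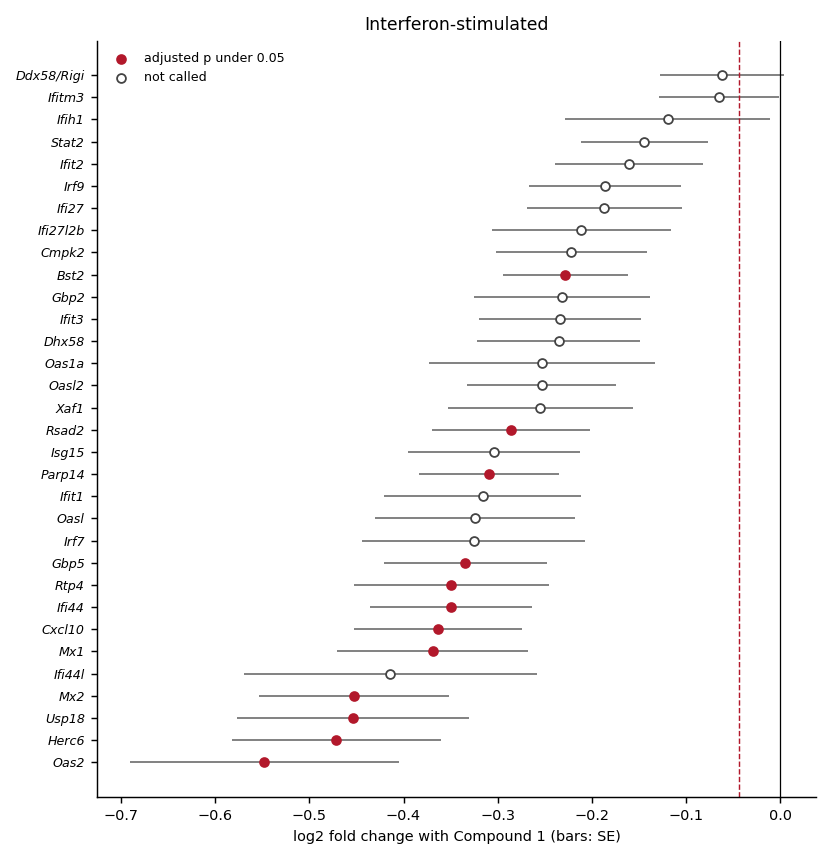
Log2 fold change with Compound 1 (horizontal axis, bars SE) of each of the 32 tested interferon-stimulated genes, filled where the adjusted p was under 0.05, with a dashed line at the median of all tested genes. Every point lies below 0, and the 12 filled points run from -0.23 to -0.55.

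Start regions of called interferon-stimulated genes are shown because the core of the interferon-stimulated response element (GAAANNGAAA on either strand) is the site through which interferon-activated factors are known to act. The 150 bases before the start are printed 5′ to 3′ from RefSeq, build GRCr8, with matches in capitals, which begin 26 bases before the start in Ifi44, 131 and 125 in Bst2, 76 in Parp14 and 56 in Gbp5.
Ifi44 (chr2:243303841-243303990, minus strand): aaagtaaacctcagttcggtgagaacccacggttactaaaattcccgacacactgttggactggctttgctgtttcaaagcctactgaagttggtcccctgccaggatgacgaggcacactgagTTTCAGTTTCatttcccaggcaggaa
Bst2 (chr16:18254968-18255117, minus strand): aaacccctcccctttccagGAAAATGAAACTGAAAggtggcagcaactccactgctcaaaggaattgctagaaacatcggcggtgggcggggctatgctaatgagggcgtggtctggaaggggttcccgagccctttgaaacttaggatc
Parp14 (chr11:78407984-78408133, plus strand): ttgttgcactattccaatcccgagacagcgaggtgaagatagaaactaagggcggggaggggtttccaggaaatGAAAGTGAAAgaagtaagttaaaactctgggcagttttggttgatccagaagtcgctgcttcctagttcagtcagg
Gbp5 (chr2:233910849-233910998, plus strand): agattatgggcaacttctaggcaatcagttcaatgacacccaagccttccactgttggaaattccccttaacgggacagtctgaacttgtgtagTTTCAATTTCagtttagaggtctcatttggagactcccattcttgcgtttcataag
Of the 32 tested genes, 22 matched the promoter table, and 16 of these held the core in the 250 bases before the start. The core lay there in 2.87% of the 9745 tested genes with a promoter and in 3.41% of all 33469 promoters. Among the 12 lower genes 8 matched and 6 held it. Mx1 and Herc6 fell without a match in this window.

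Genes of the distal nephron mostly had positive values. Of 24 tested thick ascending limb and distal tubule genes, 4 were higher and 0 lower, and 22 had positive log2 fold changes with a median of 0.14. Over all 13482 tested genes 0.823% were higher, 2.37% were lower and 4381 were positive, also for comparison with the lists that follow. Slc12a3, the thiazide-sensitive sodium chloride cotransporter, ran from 136 to 185 FPKM (median 163) in Vehicle, from 167 to 223 (187) with Compound 1, from 149 to 204 (161) with Enalapril and from 163 to 299 (186) with the combination. All 24 animals given Compound 1 were above their control median, and it rose by 0.22 (SE 0.05, adjusted p = 0.0137, limma). Slc8a1, the basolateral sodium-calcium exchanger, rose by 0.31 (SE 0.08, adjusted p = 0.0223, limma) and Bsnd, the barttin subunit of chloride channels, by 0.17 (SE 0.04, adjusted p = 0.0207, limma). The uromodulin gene Umod gave 0.23 (SE 0.10) and Slc12a1, the furosemide-sensitive cotransporter, 0.09 (SE 0.06), and neither passed. Leaving out the 6 animals listed last in the table left 1 of the 24 called. Of 16 tested genes of aldosterone-responsive sodium reabsorption, 3 were higher and 0 lower. Scnn1a, the alpha subunit of the epithelial sodium channel, had medians of 24.1 FPKM (20.3 to 26.6) in Vehicle and 30.4 (26.8 to 36.9) with Compound 1, which did not overlap, and of 24.7 and 29.9 with Enalapril and the combination, which did. Its log2 fold change was 0.29 (SE 0.06, adjusted p = 0.00140, limma). Usp2, a deubiquitinase linked to that channel, rose by 0.45 (SE 0.11, adjusted p = 0.0158, limma). In intercalated cells the ammonia transporter Rhcg and the aquaporin Aqp6 rose by 0.21 (SE 0.05) and 0.16 (SE 0.04), 2 of 16 tested. Proximal tubule genes were evenly split, 16 positive and 16 negative, where 4381 of 13482 tested genes were positive. Of these 32, 2 were higher, Ggt1 and Cubn, and their calls were lost in 5 and 4 of 17 other settings.

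Vessel genes mostly had positive values, and how many passed depended on the scaling. Of 18 tested smooth muscle and pericyte genes, 17 had positive values with a median of 0.17. On deposited FPKM 1 was higher, Myl9, and 1 lower, Cacna1h, a T-type calcium channel. Myl9, a myosin light chain, rose by 0.21 (SE 0.06, adjusted p = 0.0464, limma). The call of Myl9 was lost in 22 of 44 fits that left out 1 animal and in 6 of 17 other settings. Cacna1h fell by 0.53 (SE 0.11, adjusted p = 0.00444, limma), from a median of 1.38 to 0.729 FPKM without Enalapril and from 0.878 to 0.597 with it. Cacna1h passed the filter only through Vehicle, where 11 of 11 animals exceeded 1 FPKM against 2 of the other 33. With median-of-ratios scaling 8 of 18 were higher, among them Acta2 at 0.29 (SE 0.07) and Myh11 at 0.25 (SE 0.06), which on deposited FPKM were 0.24 (SE 0.07) and 0.20 (SE 0.08) and did not pass. Of 18 endothelial genes 3 were higher, Eng, Ehd3 and Vwf, where 0.823% of all tested genes were. Vwf, von Willebrand factor, had medians of 2.12, 2.55, 2.36 and 2.71 FPKM in Vehicle, Compound1, Enalapril and the combination, and rose by 0.28 (SE 0.06, adjusted p = 0.00809, limma).

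**Figure D4:**
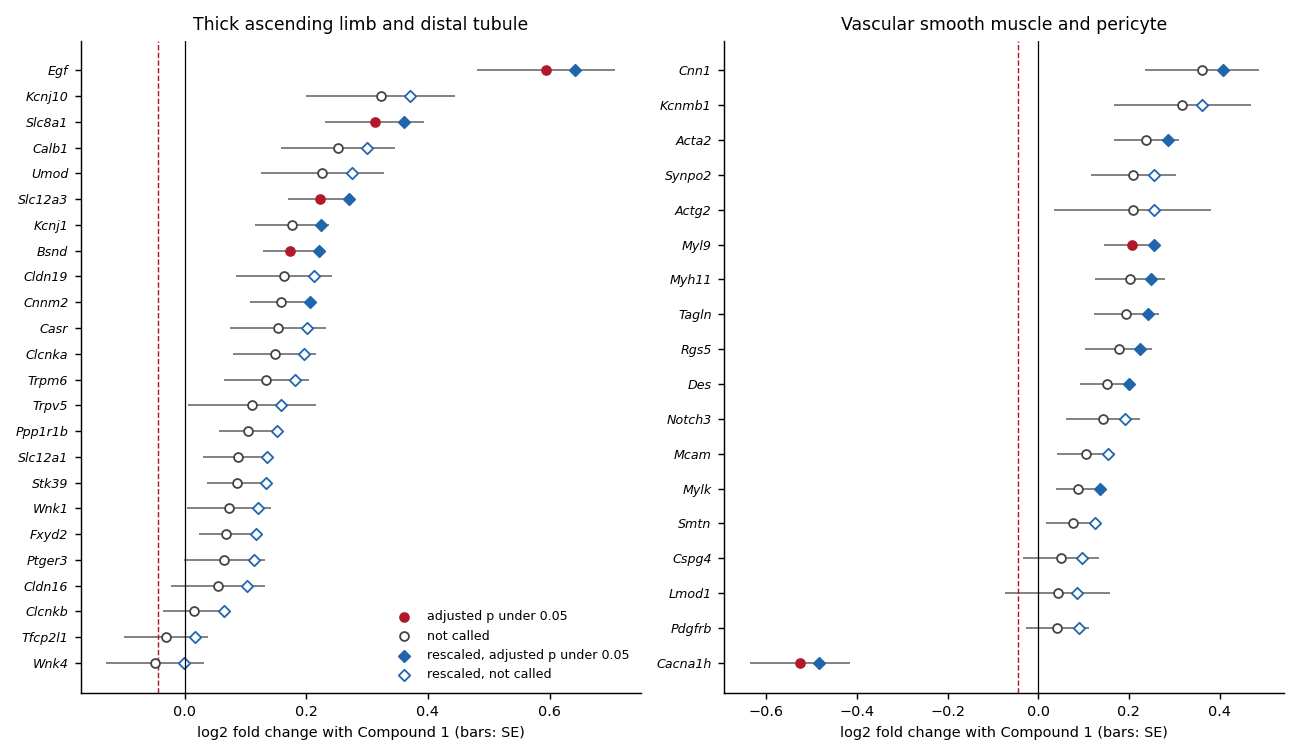
Log2 fold change with Compound 1 (horizontal axis) of the tested thick ascending limb and distal tubule genes (left) and of vascular smooth muscle and pericytes (right), from deposited FPKM (circles, bars SE) and with median-of-ratios scaling (diamonds), filled where the adjusted p was under 0.05. Rescaling moves every diamond to the right of its circle, and smooth muscle goes from 1 to 8 higher genes.

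Few matrix, immune and metabolic genes passed. Of 46 tested fibroblast and extracellular matrix genes 4 were higher and 1 lower, with a median of 0.03. Of all tested genes 0.823% were higher and 2.37% lower, with a median of -0.04. Tnc and Thbs1, the matricellular proteins tenascin C and thrombospondin 1, rose by 0.39 (SE 0.10) and 0.31 (SE 0.07) and the crosslinking enzyme Lox by 0.36 (SE 0.10), beside Matn1. The adjusted p of Tnc was 0.0205 by limma, and its medians were 5.09 and 7.64 FPKM in Vehicle and Compound1 and 2.78 and 3.67 with Enalapril and the combination. Of 23 macrophage genes 22 were negative and none of these passed, while Cd163, a scavenger receptor of macrophages, was higher at 0.55 (SE 0.16, adjusted p = 0.0469, limma), a call lost in 29 of 44 fits that left out 1 animal. Cd163 passed the filter only through Compound1, where 8 animals exceeded 1 FPKM against 4 of the other 32. Tnfsf10, the death ligand TRAIL, fell by 0.32 (SE 0.07, adjusted p = 0.0115, limma), 1 of 3 lower among 38 tested cytokines and chemokines. Of 11 class II antigen presentation genes and 19 T and B cell genes none passed, and 11 and 14 of them were negative, each list with a median of -0.12. Of all tested genes 67.5% were negative. Among 33 tubular injury genes Olfm4 and Tnfrsf12a, the TWEAK receptor, were lower. In glycolysis Pgam2, Pkm and Ldhb were higher, 3 of 29. None of 34 nuclear oxidative phosphorylation genes passed, and 32 of them were positive, with a median of 0.05. The integrated stress response genes Atf4, Ddit3 and Trib3 fell by 0.22 (SE 0.06), 0.20 (SE 0.06) and 0.49 (SE 0.14), 3 of 25 in their list, and Trib3 passed the filter only through Vehicle, where 10 animals exceeded 1 FPKM against 6 of the other 33. Without animal 3011 these 3 were at -0.21, -0.19 and -0.49 with adjusted p values of 0.0678, 0.0691 and 0.0524 by limma. Leaving out other animals also lost these calls, in 23, 21 and 16 of the 44 fits that left out 1 animal. Cubn (0.14), Cldn3 (-0.25), Ptpro (-0.20) and Gpx2 (-0.29) likewise kept their direction without animal 3011, with adjusted p values from 0.0506 to 0.0690 by limma. The calls of these 4 were lost in 4, 19, 5 and 8 of the 44 fits. Npas2, a clock transcription factor, fell by 0.52 (SE 0.09, adjusted p = 0.000574, limma), and the EGF receptor ligand Areg by 0.56 (SE 0.14, adjusted p = 0.0169, limma). Of 768 tested genes on any list, 65 passed the adjusted p alone, or 8.46%, against 430 of 13482 (3.19%). The listed genes include those the study named on these samples. Lists and members were also chosen with earlier results of these data known, so the higher share is no independent evidence.

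The pooled effect was next split by background, in comparisons that share no animal. Without Enalapril 34 genes were DEGs (0.252%), 12 higher and 22 lower, and with Enalapril there was 1, Mcpt2 (0.00742%), while 7 passed the adjusted p alone, 3 higher (0.0223%) and 4 lower (0.0297%), and 1401 an unadjusted p under 0.05. Of the 34, 33 had the same sign with Enalapril, or 97.1%, against 63.7% of all tested genes, and 21 of them also had an unadjusted p under 0.05 there. These 34 were chosen for their size without Enalapril, where the median was 0.74, and it was 0.43 in the same direction with Enalapril. The 7 genes past the adjusted p with Enalapril went the other way, with a median of 0.36 there and 0.25 without it. Over all 13482 genes the log2 fold changes of these comparisons had a Pearson r of 0.323, a description across genes that share libraries within each comparison. Without animal 3011 there were 24 DEGs without Enalapril, 23 with the same sign with Enalapril. That animal is in neither group of the comparison with Enalapril and enters it only through the shared spread. The 7 genes past the adjusted p with Enalapril were Nabp1, Myef2, Ndrg2, Ada, Eng, Mcpt2 and Tmem80.

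**Figure D5:**
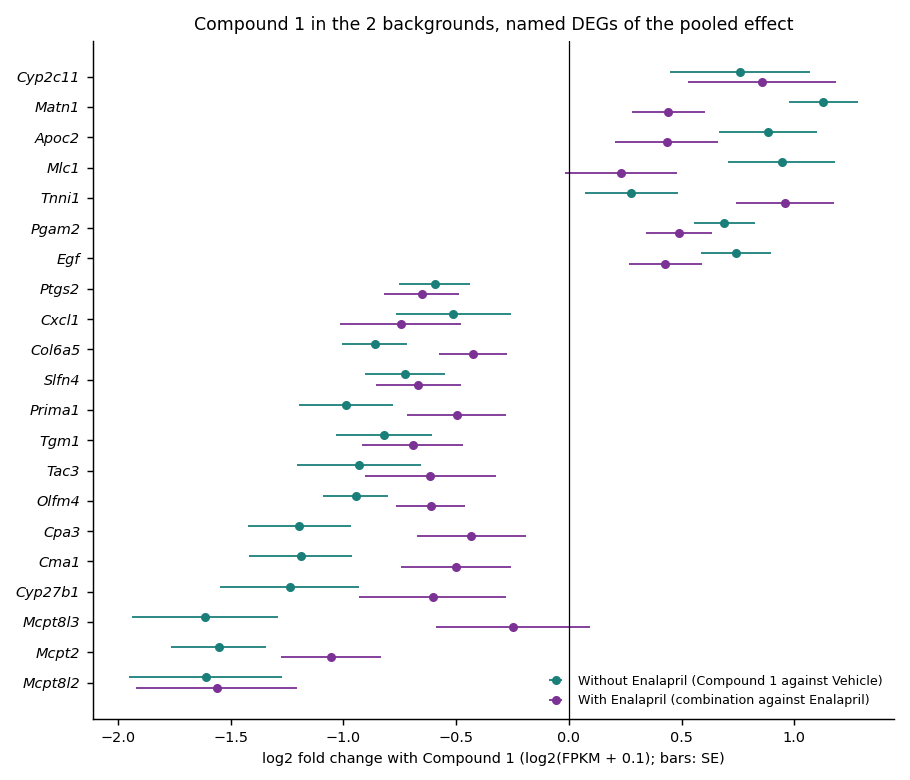
Log2 fold change with Compound 1 (horizontal axis, bars SE) without Enalapril (Compound1 against Vehicle) and with it (combination against Enalapril) for 21 named DEGs of the pooled effect. Both points lie on the same side of 0 for every gene, and most without Enalapril lie farther from 0. The genes were called on the pooled effect of these same comparisons, which favours a shared sign. All 430 genes past the adjusted p alone in the pooled effect also had the same sign in both.

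Most DEGs were larger without Enalapril, but the difference itself did not pass for any. Of the 24 DEGs 20 had the larger absolute value without Enalapril, against 7137 of 13482 tested genes, and 7 had an unadjusted interaction p under 0.05, the smallest adjusted p being 0.986 (limma). Matn1 gave 1.13 (SE 0.15) without Enalapril and 0.44 (SE 0.16) with it, Mcpt8l3 -1.61 (SE 0.32) and -0.25 (SE 0.34), and Tnni1 ran the other way at 0.28 (SE 0.21) and 0.96 (SE 0.22). The gene that passed the interaction test, 1 of 13482 (0.00742%) with 579 at an unadjusted p under 0.05, was Kcne1, the accessory subunit of Kcnq1. Kcne1 ran from 3.05 to 6.28 FPKM (median 4.30) in Vehicle, from 1.18 to 3.99 (2.89) with Compound 1, from 1.82 to 5.06 (3.12) with Enalapril and from 2.41 to 5.28 (4.29) with the combination. It fell by 0.71 (SE 0.16, adjusted p = 0.0128, limma) with Compound 1 alone and gave 0.50 (SE 0.16, adjusted p = 0.255, limma) on Enalapril, and the interaction had an adjusted p of 0.0342 by limma. Its pooled value was -0.14 (SE 0.14). Neither median of ratios nor quantile normalization kept this call.

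Enalapril shares these animals with the Compound 1 contrast, so its own values are set side by side for description. For Egf, Enalapril gave 0.60 (SE 0.11) and Compound 1 0.59 (SE 0.11). For Mcpt2 the values were -1.02 (SE 0.16) and -1.32 (SE 0.16), and for Olfm4 -0.47 (SE 0.11) and -0.79 (SE 0.11). Ptgs2, Matn1 and Slfn4 had -0.62, 0.80 and -0.70 with Compound 1, and with Enalapril 0.13 (SE 0.11), 0.07 (SE 0.12) and -0.24 (SE 0.13), none of which passed. Thbs1 and Tnc rose by 0.31 and 0.39 with Compound 1 and fell by 0.38 and 0.81 with Enalapril. The mean log2 FPKM of inner medulla markers was 4.66 in Vehicle, 4.63 with Compound 1, 4.37 with Enalapril and 4.38 with the combination, none of whose 11 tested members was called for Compound 1, and mitochondrial transcripts held 27.5%, 30.2%, 32.8% and 32.1% of FPKM. With inner medulla level or mitochondrial share as a covariate, 862 and 656 genes passed the adjusted p alone.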

How the data were processed

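RNA of right-kidney portions from 44 obese ZSF1 rats was sequenced from TruSeq Stranded mRNA libraries as paired-end reads on a NovaSeq. The authors deposited FPKM per gene, made against the rat genome build rn6 per the submitters' processing notes. No source used here gives the aligner or counter. The study ran DESeq2 on counts, which were not used here, and FPKM cannot be tested as counts. Read totals are unknown, so no counting interval was given. Groups came from the labels.

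Genes above 1 FPKM in 9 or more libraries (13482) were tested on log2(FPKM + 0.1) with limma 3.58.1 (trend) in R 4.3.3, with terms for Enalapril and Compound 1. A fit of the 4 groups gave the effect without and with Enalapril and their interaction. P-values were two-sided and adjusted by Benjamini-Hochberg over all tested genes, with thresholds of 0.05 and a fold above 1.5 or under 0.66. Each library was 1 animal. No paired analysis was possible because animals were separate and groups shared no replicate numbers. Named genes were DEGs with a descriptive symbol, up to 5 higher and 5 lower genes of smallest p below the fold threshold, up to 4 called genes per list, the genes the study named, the cyclase subunits and genes past the interaction test. Members and lists were chosen with earlier results of these data known. The code was tested on simulated data. Promoters came from RefSeq tables (GRCr8). Figures used Python 3.11.15, pandas 2.3.3 and matplotlib 3.10.9. Alternatives changed the pseudocount, filter, scaling, covariates and animals; those with relative depth, with Vehicle animals 1003 and 1004 left out together, and with animal 3011 left out of the group fit were added after seeing the data. A result that rests on a withheld gene is not reported here.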

Additional observations from a re-analysis of the deposited data

Results flagged for a closer look

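In the Enalapril group of 9, 8 of 79 named genes had 1 animal far above the others, by a gap, as a share of the group's range, above Dixon's critical value for 9 samples, and chance gives about 1 such gene in 20. Animal 2103 was highest for Mcpt2 (15.4 FPKM against 9.66 in the next, a gap of 0.496 of the range), Mcpt8l3 (3.48 against 1.75, 0.520), Tgm1 (1.81 against 0.997, 0.556) and Tnfrsf12a (66.5 against 53.6, 0.502). Animal 2012 was highest for Cyp2c11 (12.1 against 4.49, 0.755) and Dhcr7 (23.8 against 19.4, 0.535). Animal 2011 was highest for Cxcl10 (22.6 against 15.2, 0.504), and animal 2005 for Kcne1 (5.06 against 3.33, 0.536). The effect of Compound 1 on Kcne1 differed between backgrounds by 1.21 on the log2 scale in the interaction test of limma (adjusted p = 0.0342), and without animal 3011 the adjusted p was 0.0234.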

How the results depend on the processing

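Of 22 DEGs with a descriptive symbol, 15 were DEGs in all 44 fits that left out 1 animal and 5 in all 17 other settings, and Mcpt8l2 and Cyp27b1 in all but the filter of 5 FPKM, where they were not tested. Leaving out 1 animal gave 19 to 30 DEGs and 309 to 1036 genes past the adjusted p alone, the most without combination animal 4002 and 734 without Compound1 animal 3105. A pseudocount of 1 gave 12 DEGs and a filter of 5 FPKM 10. Past the adjusted p alone, sample weights gave 1024 genes, an inner medulla covariate 862, a mitochondrial share covariate 656, no term for Enalapril 250 and leaving out the 6 animals listed last 139. Without Enalapril a pseudocount of 1 gave 19 DEGs and the stricter filter 16. With Enalapril a pseudocount of 1 gave 2, median of ratios and quantile normalization 4 each, and leaving out animal 3011, which is in neither group, 0. The interaction gave 0 genes without a filter, with the stricter filter and under both scalings, and 1 in the main analysis. Gucy1b1 turned positive at 0.0034 with quantile normalization, 0.0044 with sample weights and 0.0010 without the 6 animals. The causes were not tested. Low genes are limited by unknown depth.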

Other observations

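Among genes on no list, named after their values were seen and in data where 67.5% of all tested genes were negative, Srsf5 was at -0.38, Thoc1 at -0.40, Pabpn1 at -0.30, Tial1 at -0.26, Tardbp at -0.22 and Srsf1 at -0.22 on the log2 scale. Among higher genes were Slc2a4, the insulin-responsive glucose transporter, at 0.48, Sgca, a sarcoglycan of muscle, at 0.52, Gnmt, a glycine methyltransferase, at 0.47, Fst, the activin inhibitor follistatin, at 0.38, the vitamin D receptor Vdr at 0.24 and Id1, a target of BMP signalling, at 0.28. Each passed an adjusted p of 0.05 by limma. Related genes that did not pass or went the other way were not counted. The calls in this paragraph were not followed under the other scalings.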
